A study of Mus musculus with 2 samples.

Results

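The 5 microRNA genes Mir532, Mir188, Mir362, Mir501 and Mir500 lie on the X chromosome of the mouse inside Clcn5 and are transcribed from its strand. They were chosen by position, as every microRNA gene of the deposited count files that GENCODE M21 places wholly within Clcn5 on the same strand, and they are 5 of 2202 microRNA genes counted. The samples are microRNA sequencing libraries of total RNA from hippocampus (labelled as a layer of hippocampus) of male B6CASTF1/J mice aged 10 days, in 1 group of 2 biological replicates. B6CASTF1/J mice come from a cross of the strains C57BL/6J and CAST/EiJ, and each replicate is labelled with 3 males. The replicates carry different animal numbers and the same donor identifier, so the spread between them may in part be technical. No treatment or other genotype was compared, and the values below describe the levels of the 5 genes and how far the 2 libraries differed.

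MicroRNAs are cut from hairpin precursors by Drosha and Dicer, and one arm or both arms of a hairpin yield a mature RNA that guides Argonaute to transcripts, mainly by its seed, bases 2 to 8. When several hairpins sit in one intron they can come from a single primary transcript, and their mature levels then depend also on how well each hairpin is processed and how long its products last. Clcn5 encodes an endosomal chloride and proton exchanger, and its human counterpart is mutated in Dent disease, a disorder of the kidney tubule. In cultured rodent hippocampal neurons, miR-188 has been reported to act on neuropilin-2 and miR-501-3p on the AMPA receptor subunit GluA1.

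The mature sequences show which members could share targets. RefSeq (GRCm38.p6) held all 5 hairpins and 9 mature microRNAs of these genes. For Mir532 only the 3p arm was among them, so the seed of a 5p product of Mir532 was not compared. The mature sequences are given here 5′ to 3′ with the seed in capitals.
miR-532-3p: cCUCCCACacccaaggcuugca
miR-188-5p: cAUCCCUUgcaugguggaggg
miR-188-3p: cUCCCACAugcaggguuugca
miR-362-5p: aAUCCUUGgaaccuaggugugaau
miR-362-3p: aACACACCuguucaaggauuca
miR-501-5p: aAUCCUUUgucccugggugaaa
miR-501-3p: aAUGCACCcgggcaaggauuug
miR-500-5p: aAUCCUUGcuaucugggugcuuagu
miR-500-3p: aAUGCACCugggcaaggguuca

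These 9 mature microRNAs have 7 distinct seeds. miR-500-3p and miR-501-3p have the same seed, and so do miR-500-5p and miR-362-5p. The seeds of miR-532-3p and miR-188-3p are the same letters shifted by 1 base over most of their length. By their 3p arms the genes form 2 sequence groups, one of Mir532 and Mir188 and one of Mir362, Mir501 and Mir500. In global alignments of the 3p arms, identity was 68.2% to 81.8% over the 4 pairs within these groups and 47.8% to 60.9% over the 6 pairs across them. Whole hairpins did not follow these groups. Their identity was 52.1% for Mir532 with Mir188 and 43.1% for Mir362 with Mir501, but 57.3% for Mir188 with Mir362 across the groups. The closest pair was Mir501 and Mir500, whose 3p arms differ at 4 of 22 bases. Counted from the 5′ end of miR-500-3p, the substitutions that give miR-501-3p are U9C, G18A, C21U and A22G.

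The Mir501 and Mir500 hairpins also share the longest run of identical bases of any pair among the 5, which is 14 bases and is shown in capitals in both, because these are the most alike hairpins of the cluster.
Mir501: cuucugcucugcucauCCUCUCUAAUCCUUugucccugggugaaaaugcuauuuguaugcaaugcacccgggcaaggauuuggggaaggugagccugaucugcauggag
Mir500: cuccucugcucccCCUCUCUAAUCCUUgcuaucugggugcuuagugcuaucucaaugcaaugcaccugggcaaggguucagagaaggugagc

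The deposited gene counts leave out reads that fit several places, and 1084 of the 2202 genes share a run of at least 20 bases with another microRNA gene. None of the 5 genes does, so their counts are less exposed to that loss than those of multicopy families. How many mismatches the alignment allowed is not given in the sources used here, so exchange of reads between Mir501 and Mir500 was not tested.

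Clcn5 spans bases 7153810-7319358 of the X chromosome on the minus strand (mm10, as for all positions). All 5 hairpins lie in a single intron at 7213011-7316658, 103648 bases long, of the 3 annotated Clcn5 transcripts that reach over it. It is intron 3 of 2 of those transcripts and intron 2 of the other, and 2 further annotated transcripts do not reach the hairpins. In the direction of transcription the order is Mir532 (7248402-7248497), Mir188 (7247989-7248056), Mir362 (7241982-7242046), Mir501 (7241243-7241351) and Mir500 (7237683-7237774). Mir188 begins 345 bases after Mir532, and Mir501 begins 630 bases after Mir362. Gaps of 5942 bases before Mir362 and 3468 bases before Mir500 separate these pairs and the last gene. The first hairpin starts 70861 bases downstream of the annotated start of Clcn5. The level of the Clcn5 transcript itself was not analysed here.

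All 5 genes were well measured, and their levels differed widely. Levels are given as CPM, counts per 1000000 counts on microRNA genes, and are not divided by length, since each read stands for one short mature RNA. Counts are per hairpin gene and do not separate the 5p and 3p arms. Mir532 had 9341 counts (2672 CPM) in replicate 2 and 15823 counts (3286 CPM) in replicate 1, a mean of 2979 ± 434 CPM (SD, n = 2). It was the highest of the 5 genes in both libraries and ranked 59 of 2202 genes by mean level. Mir501, whose 3p arm has the GluA1 record, had 8741 counts (2501 CPM) in replicate 2 and 9154 counts (1901 CPM) in replicate 1, a mean of 2201 ± 424 CPM (SD, n = 2). It ranked 76 of all genes by mean level, close behind Mir532.

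The remaining members were lower. Mir188 had 3053 counts (873 CPM) in replicate 2 and 2925 counts (607 CPM) in replicate 1, a mean of 740 ± 188 CPM (SD, n = 2). Mir500 had 1434 counts (410.3 CPM) in replicate 2 and 1744 counts (362 CPM) in replicate 1, a mean of 386 ± 34.0 CPM (SD, n = 2). Mir362 was the lowest, with 349 counts (99.8 CPM) in replicate 2 and 257 counts (53.4 CPM) in replicate 1, a mean of 76.6 ± 32.9 CPM (SD, n = 2). Mir188, Mir500 and Mir362 ranked 128, 153 and 225 of all genes. Even for Mir362, the exact 95% interval of its level was 89.6 to 110.9 CPM in replicate 2 and 47.0 to 60.3 CPM in replicate 1, well above the 0.858 CPM and 0.623 CPM that a count of 0 would allow in these libraries. Intervals and such limits cover counting error only. On the strand opposite to the hairpins, all 5 genes had 0 counts in both libraries.

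**Figure D1:**
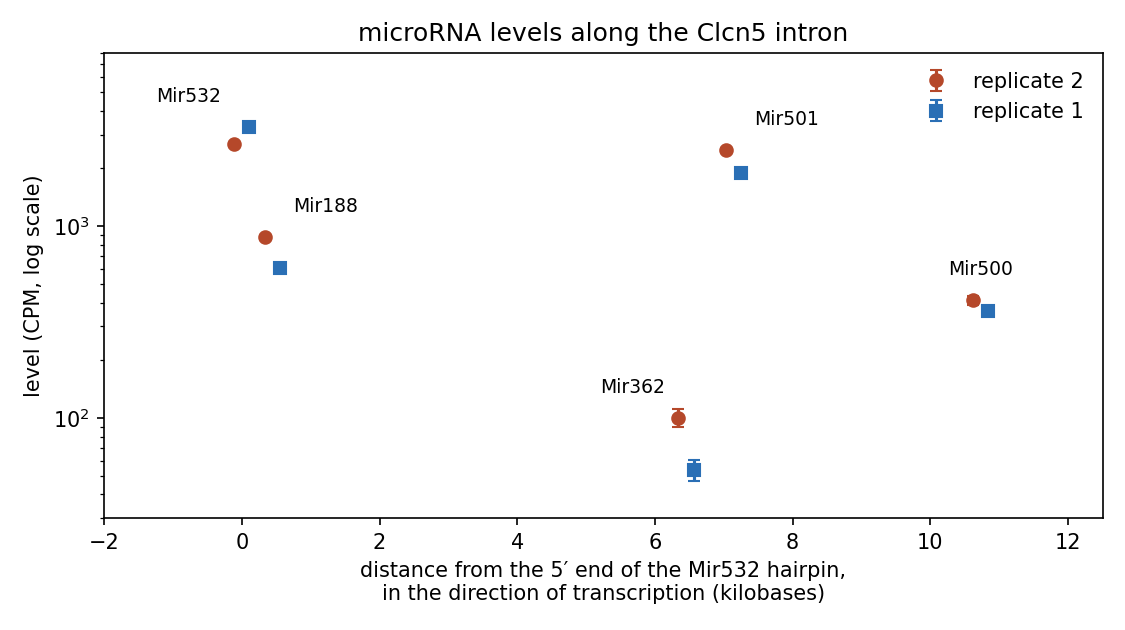
Levels of the 5 genes in CPM on a log axis against the distance of each hairpin from the 5′ end of the Mir532 hairpin, in kilobases along the direction of transcription. Circles are replicate 2 and squares replicate 1, drawn slightly apart, with exact 95% counting intervals; the highest levels (Mir532, Mir501) and the lowest (Mir362) stand at separate places along the intron, and Mir362 and Mir501 are near neighbours.

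The plot of levels along the intron shows that the levels did not follow the order along the intron. Mir362 and Mir501, 630 bases apart, differed 28.7-fold in mean level, while Mir532 and Mir501, the most abundant genes, are 7050 bases apart. The most abundant genes were not of one sequence group either: Mir532 and Mir501 belong to different groups, and Mir501 was 5.70 times as abundant on average as Mir500, its closest relative in sequence. The predicted minimum free energy of the hairpins was -33.2 kcal/mol for Mir532, -46.9 for Mir501, -28.8 for Mir188, -41.9 for Mir500 and -28.5 for Mir362. The relation of these energies to the levels was not tested. Whether different mature RNAs were captured equally well was not tested, and these ratios compare read counts.

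The order Mir532, Mir501, Mir188, Mir500, Mir362 held in both libraries, and all 10 pairs of genes kept their order. Neighbours in that order were apart by unequal margins. Mir532 had 1.07 times the counts of Mir501 in replicate 2 (exact 95% interval 1.04 to 1.10) and 1.73 times in replicate 1 (1.68 to 1.77). The means of Mir532 and Mir501 differed by less than the sum of their SDs, a comparison that ignores that both genes were counted in the same libraries. Within each library Mir532 was the higher, but the spread of their ratio rests on 2 values. Mir501 had 2.86 times the counts of Mir188 in replicate 2 and 3.13 times in replicate 1, a steadier ratio. Mir188 had 2.13 times the counts of Mir500 in replicate 2 and 1.68 times in replicate 1. Mir500 had 4.11 times the counts of Mir362 in replicate 2 and 6.79 times in replicate 1. Between the ends of the order, Mir532 had 26.8 times the counts of Mir362 in replicate 2 (24.0 to 29.9) and 61.6 times in replicate 1 (54.4 to 69.9). The CPM values did not overlap between the genes in any pair of neighbours. For Mir532 and Mir501 the margin was small, with 2672 CPM the lower value of Mir532 and 2501 CPM the higher value of Mir501.

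Together the 5 genes held 22918 counts in replicate 2 and 29903 counts in replicate 1. This was 0.656% of counts in replicate 2 (exact Clopper-Pearson 95% interval 0.647% to 0.664%) and 0.621% in replicate 1 (0.614% to 0.628%), a mean of 0.638% ± 0.0246 (SD, n = 2). The summed level thus barely moved between the libraries, with a log2 ratio of 0.08 (counting interval 0.05 to 0.10). With DESeq2 size factors this ratio was -0.09, so its direction depends on the scaling.

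Within that steady sum the composition differed. Mir532 made up 40.8% of the cluster's counts in replicate 2 (exact 95% interval 40.1% to 41.4%) and 52.9% in replicate 1 (52.3% to 53.5%). Mir501 made up 38.1% in replicate 2 (37.5% to 38.8%) and 30.6% in replicate 1 (30.1% to 31.1%). In both libraries these 2 genes held most of the cluster's counts, 78.9% in replicate 2 and 83.5% in replicate 1. The share of Mir188 was 13.3% in replicate 2 and 9.78% in replicate 1, that of Mir500 was 6.26% in replicate 2 and 5.83% in replicate 1, and that of Mir362 was 1.52% in replicate 2 and 0.859% in replicate 1. These shares do not depend on how the libraries are scaled. In all, 12.2% of the cluster's counts would have to change gene to turn one composition into the other, and the counting intervals of all 10 ratios between members were apart in the 2 libraries. Counting error alone is behind those intervals, and replicates of 1 library each give no measure of the technical spread.

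**Figure D2:**
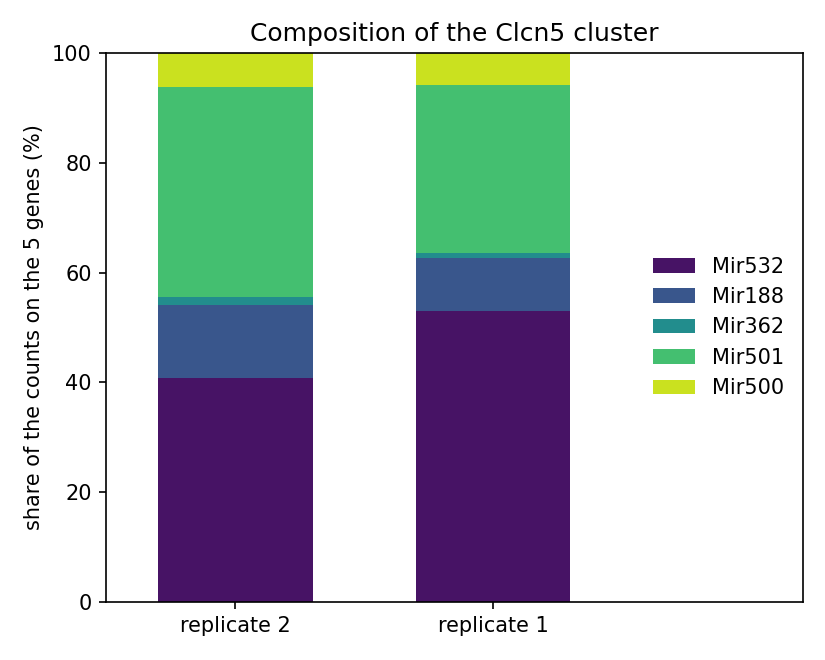
Share of the counts on the 5 genes taken by each gene, in percent, as stacked bars for replicate 2 and replicate 1, with genes stacked in the order of transcription from the bottom. Mir532 takes 40.8% in replicate 2 and 52.9% in replicate 1, and Mir501 takes 38.1% in replicate 2 and 30.6% in replicate 1.

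Single genes of the cluster were then set against all microRNA genes in the comparison of the libraries. Mir532 was the one member with a lower level in replicate 2, with a log2 ratio of replicate 2 over replicate 1 of -0.30. The log2 ratios of the others were 0.18 for Mir500, 0.40 for Mir501, 0.52 for Mir188 and 0.90 for Mir362. A gene was called where an exact two-sided binomial test over the 540 genes with at least 10 counts gave an adjusted p below 0.05 and the log2 ratio was at least 1 in size. The adjusted p ran from 6.39e-74 for Mir501 to 0.00109 for Mir500 in this exact test. By that rule 0 of 5 members were called, against 18.7% of all tested genes. With the adjusted p alone, 5 of 5 members passed, against 55.7% of all tested genes. Of these, 4 were higher in replicate 2 (32.4% of all tested genes) and 1 was lower (23.3%). At an unadjusted p under 0.05, 5 of 5 members passed, against 59.4% of all tested genes. The test compares these libraries and not conditions, and at these depths it passes small ratios.

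**Figure D3:**
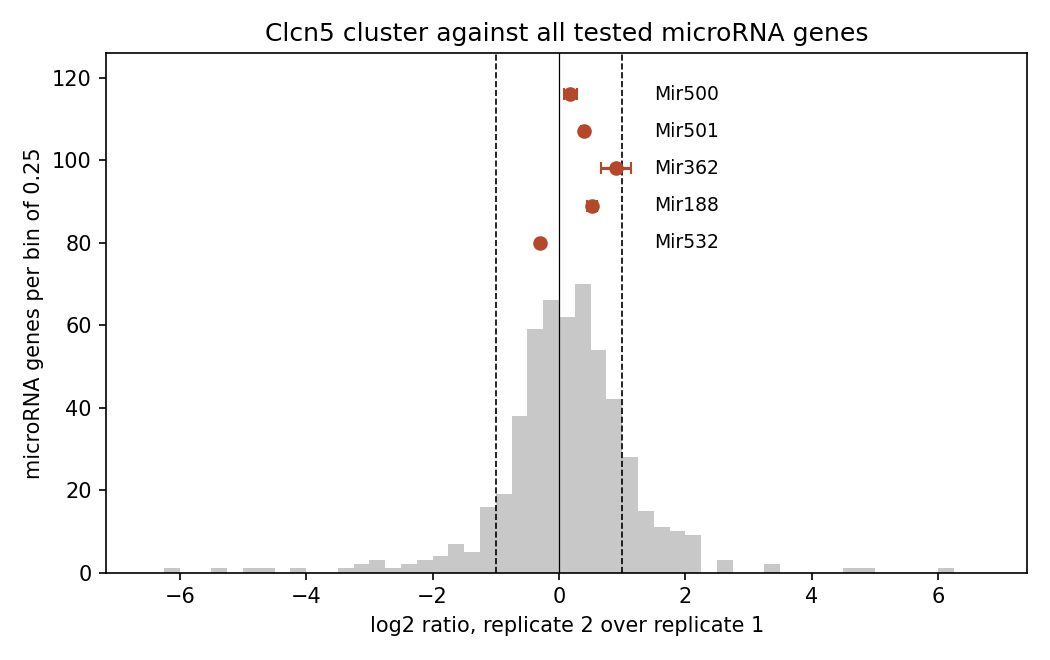
Histogram of the log2 ratio of replicate 2 over replicate 1 for the 540 tested microRNA genes in bins of 0.25, with the 5 members as points above it (their height carries no value) and their exact 95% counting intervals. Dashed lines mark a ratio of 1 in size; all 5 members lie between them, from -0.30 for Mir532 to 0.90 for Mir362, although the interval of Mir362 reaches past the line.

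The members' ratios were of ordinary size. Their median log2 ratio was 0.40, against 0.17 over all tested genes, and the median of its absolute value was 0.40 for the members and 0.54 for all tested genes. The common biological coefficient of variation estimated with edgeR was 38.6% over 427 genes, which corresponds to an SD of 0.79 for a log2 ratio of 2 libraries. Mir362, at 0.90, lay beyond 1 such SD and the other 4 members lay within it. Its counting interval ran from 0.67 to 1.14. Mir500 had an adjusted p of 0.00109 in the exact binomial test, but with DESeq2 size factors its log2 ratio was 0.01 with an adjusted p of 0.92, and with TMM sizes 0.11 with an adjusted p of 0.058. DESeq2 size factors move the median of all tested genes by 0.17. Relative to that median, the log2 ratios were -0.47 for Mir532, 0.01 for Mir500, 0.22 for Mir501, 0.35 for Mir188 and 0.73 for Mir362.

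Markers of other cell types differed between the same libraries. The 3 red blood cell microRNAs summed to 76.4 CPM in replicate 2 and 1229 CPM in replicate 1. Most of that difference was Mir451a, at 41.5 CPM in replicate 2, against 1143 CPM in replicate 1. Mir144 stood at 6.58 and 54.6 CPM in replicates 2 and 1, while Mir486 differed little, at 28.3 and 31.6 CPM. Of these 3 genes, 1 shares bases with a copy, so reads that fit several places are missing from its level. The endothelial Mir126a stood at 9301 CPM in replicate 2, against 14888 CPM in replicate 1. The 6 microRNAs of choroid plexus and ciliated cells summed to 5331 CPM in replicate 2 and 2582 CPM in replicate 1. All of these genes had counts in both libraries. Mir122 of liver stood at 31.5 CPM in replicate 2, against 39.5 CPM in replicate 1, and 4 of 5 striated muscle genes were at 0, all 4 of which share bases with a copy. The fifth, Mir206, stood at 32.6 CPM in replicate 2, against 102 CPM in replicate 1. The 10 neuronal genes, 9 of them with counts in both libraries, summed to 100888 CPM in replicate 2 and 75561 CPM in replicate 1, and 7 of them share bases with a copy. They did not move together: Mir139 stood at 57346 CPM in replicate 2, against 31820 CPM in replicate 1, while Mir149 stood at 19256 CPM in replicate 2, against 25508 CPM in replicate 1. The lists of 3 astrocyte, 3 oligodendrocyte and 4 myeloid genes summed to 10199, 1740 and 906 CPM in replicate 2, against 9796, 1037 and 495 CPM in replicate 1. Each of these lists also held genes with log2 ratios of opposite sign, 1.78 for Mir21a and -0.27 for Mir23a among the astrocyte genes, 0.80 for Mir219a-2 and -0.97 for Mir219a-1 among the oligodendrocyte genes, and 1.06 for Mir150 and -0.33 for Mir142 among the myeloid genes. Among the astrocyte genes 1, and among the oligodendrocyte genes 2, share bases with a copy, so reads that fit several places are missing from their levels. The astrocyte list includes Mir143, which vascular smooth muscle expresses, at 4071 CPM in replicate 2, against 3822 CPM in replicate 1. The sum of that list is therefore not a measure of astrocytes alone. Most of the myeloid sum was Mir150, at 776 CPM in replicate 2, against 372 CPM in replicate 1. Mir142, Mir155 and Mir223 stood at 32.9, 84.1 and 13.4 CPM in replicate 2, against 41.3, 78.3 and 3.11 CPM in replicate 1. The myeloid sum therefore mainly follows Mir150 and is not a measure of myeloid cells. The part of these differences in the cluster's composition was not tested. In tissue libraries, fewer cells of a type and less of an RNA per cell cannot be told apart.

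On the X chromosome, of which males carry a single copy, the files list 142 microRNA genes, and 45 of them reached 10 counts. The Clcn5 cluster took 15.5% of the X-linked counts in replicate 2 and 14.6% in replicate 1. Mir532 ranked 5 and Mir501 ranked 7 among X-linked genes by mean level. The genes with the highest levels were Mir652, in Tmem164, at 11749 ± 1359 CPM, Mir676, in Eda, at 4881 ± 444 CPM and Mir361, in Chm, at 4126 ± 97.2 CPM (SD, n = 2 for each). By mouse nomenclature the dam strain of a hybrid is named first, so the X chromosome of these males would come from C57BL/6J, the strain of the mm10 genome. This was not tested with the files.

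Of the 7 seeds listed for the cluster, 2 recur elsewhere in the RefSeq table. miR-362-3p shares its seed with miR-329-3p of the imprinted Dlk1-Dio3 region (chromosome 12, 109713541-109713562), whose sequence is given for comparison with that of miR-362-3p above.
miR-329-3p: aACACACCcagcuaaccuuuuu

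Mir329 had 3072 counts (879 CPM) in replicate 2 and 957 counts (199 CPM) in replicate 1. It was thus higher than Mir362 in both libraries, and unlike Mir362 it was called as differing between them, with a log2 ratio of 2.14. Whether the ratios of Mir329 and Mir362 differ from each other was not tested. The seed of miR-188-5p recurs in miR-7061-3p, but Mir7061 had 2 counts in replicate 2 and 7 counts in replicate 1 and was not tested. The seeds shared within the cluster, those of miR-500-3p with miR-501-3p and of miR-500-5p with miR-362-5p, had no other holder in that table.

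By distance on log2(CPM + 1) over the 2 libraries, the 3 genes nearest to Mir532 were Mirlet7c-2 (0.11), Mir328 (0.13) and Mir370 (0.18). The nearest gene was Mir31 for Mir188 (0.06), Mir27a for Mir362 (0.08), Mir7b for Mir501 (0.17) and Mir488 for Mir500 (0.13). Mirlet7c-2 and Mir27a share bases with copies, so their levels are uncertain. A likeness over 2 libraries is a match of level and of a single ratio, and carries no more than that.

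Set beside 4 other clusters, the Clcn5 genes resembled the clusters of Mcm7 and Mir17hg in summed level and in the absence of called members. The cluster in Mcm7, a subunit of the replicative helicase, held 0.664% of all counts in replicate 2, against 0.591% in replicate 1. It ran from Mir93 at 4823 ± 69.2 CPM to Mir25 at 135 ± 63.3 CPM (SD, n = 2 for both), and 0 of its 3 genes were called. The Mir17hg cluster, the host of miR-17 and its neighbours, took 0.593% in replicate 2 and 0.715% in replicate 1. Its 4 tested genes ran from Mir17 at 3891 ± 564 CPM to Mir18 at 231 ± 9.08 CPM (SD, n = 2 for both), and 0 of them were called. The log2 ratios of the tested genes spanned 1.20 in Clcn5, 0.97 in Mcm7 and 0.22 in Mir17hg. The composition shifted by 12.2% in Clcn5, 7.42% in Mcm7 and 1.07% in Mir17hg. In Mir17hg 2 genes share bases with copies, so its share and composition miss reads that fit several places.

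The other X-linked clusters differed more between the libraries. Of the 5 listed genes that were matched in the serotonin receptor gene Htr2c, 4 were called, and their summed share was 0.151% in replicate 2 and 0.0223% in replicate 1. A further microRNA gene inside Htr2c that was not on the list, Gm22650, named after its values were seen, had 22 counts in replicate 2 and 16 counts in replicate 1 and was not called (adjusted p = 0.113 in the exact binomial test). The highest listed gene, Mir1298, stood at 1343 CPM in replicate 2, against 139 CPM in replicate 1, and the lowest, Mir1912, had 25 counts in replicate 2 and 0 counts in replicate 1. In the cluster of Mir322, 1 of the 5 matched genes was called. Its highest gene was Mir351, with 1059 CPM in replicate 2 and 2454 CPM in replicate 1, and its lowest was Mir450b, with 10.9 CPM in replicate 2 and 13.3 CPM in replicate 1. Differences between clusters were not tested.

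**Figure D4:**
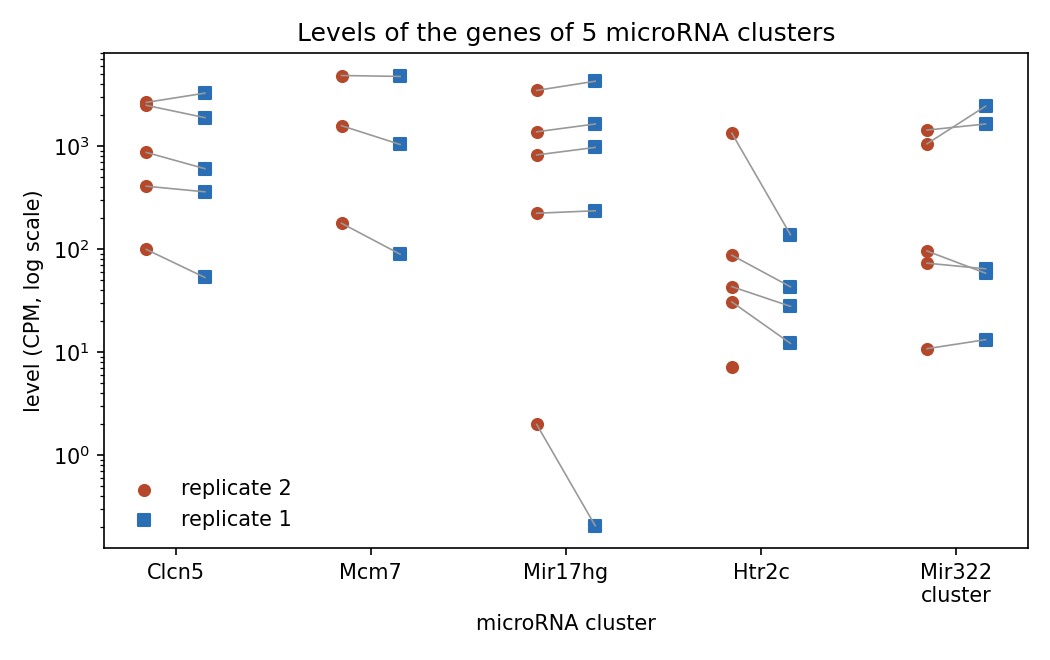
Levels in CPM on a log axis of the genes of 5 microRNA clusters, with circles for replicate 2 and squares for replicate 1 and a line joining the values of a gene; values of 0 (Mir19a in both libraries, Mir1912 in replicate 1) are not drawn. The Clcn5 genes lie between 53.4 and 3286 CPM and keep their order, with Mir532 lower in replicate 2 and the other members higher to unequal degrees.

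Among all 15 clusters with at least 3 tested genes no more than 10000 bases apart, the Clcn5 cluster ranked 7 by summed share and had the 3rd smallest change of its sum between the libraries. Its compositional shift of 12.2% was the median of the 15, and its span of log2 ratios of 1.20 lay near their median of 1.41. All pairs of tested genes kept their order in 8 of the 15 clusters, and no gene was called in 7 of them. Clcn5 was among the 6 clusters with no gene that shares 20 bases with another.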

How the data were processed

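The authors deposited raw read counts per microRNA gene, 1 file per library, unstranded and for each strand. The genome (mm10) and annotation (GENCODE M21) are as named in the submitters' notes; the sources used here do not name an aligner, a counter or a trimming step. The stranded column with the larger total was used. Replicate 2 had 3495401 counts on genes and replicate 1 had 4815761; reads fitting several places (39.8% of all reads in replicate 2, 37.7% in replicate 1) were not in gene counts. Genes were named from GENCODE M21, and the genomic annotation of Clcn5 was taken from it.

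All 540 genes with at least 10 counts were compared by exact two-sided binomial tests with Benjamini-Hochberg adjustment, with log2 ratios after adding 0.5 counts. A limit for a count of 0 was 3 counts. Members, gene lists and clusters for comparison were chosen with earlier results of these data known. Named genes were the members, their nearest genes (3 for Mir532, 1 for each other), holders of a member's seed, the ends of each comparison cluster and the top 3 X-linked genes; 2 of the 6 Mir17hg genes were not tested, and Mir1911, Mir450a-1 and Mir450a-2 were not matched by name and are not analysed here. The comparison of the libraries was tested on simulated data with counting error only. That simulation left out the spread between real libraries, so it cannot show how the test behaves under such spread. Alternatives covered scaling, strand, filters, ratio minimum, copies and denominators. Python 3.11.15, SciPy 1.17.1, Biopython 1.88, RNAfold 2.7.2, R 4.3.3, edgeR 4.0.16 and DESeq2 1.42.0 were used.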

Additional observations from a re-analysis of the deposited data

How the results depend on the processing

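Over 9 alternatives, each member kept its direction in all 45 ratios, which ran from -0.47 to -0.25 for Mir532 and from 0.01 to 0.23 for Mir500. In 39 of the 45 the member's side of the threshold also held. The settings of minimum counts and ratio minimum cannot change a ratio and repeat the main value. Only those of scaling, strand, copies and library size could change a direction. Members differing numbered 5 with no ratio minimum (55.7% of all tested genes), 1 (Mir362) with a minimum of 0.58 (32.4%), and 0 under the other 7 settings (13.9% to 20.4%). The cluster's share of counts was 0.679% with unstranded counts, 0.234% of all reads and 0.711% without genes that have copies, each with another denominator. Its log2 ratio was 0.0082 with TMM sizes, 0.41 without Mir532, -0.0925 with DESeq2 size factors and -0.0923 with all reads as library size. Leaving out a replicate leaves no comparison of libraries. The ratio of Mir532 to Mir362 was 26.8 without replicate 1 and 61.6 without replicate 2, and the Mir532 share was 40.8% and 52.9%. These are the values of the single libraries and no test of stability. The other alternatives left the counts of these genes nearly unchanged, so they could not move the ratio or the share by much. No paired analysis was possible because the samples form 1 group. With 2 libraries of 1 group, depth limited Mir362 most.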
